A study of Mus musculus with 4 samples.

Results

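DNA replication genes were followed in single cells of mouse spermatogonial cultures treated with testis extracellular vesicles (EVs) or with vehicle. The set held 39 genes of 32285 in the count tables, chosen by symbol as parts of the replication machinery and of its supply, and every symbol matched 1 row. Primary spermatogonia, the mitotic germ cells of the male, had been taken as Thy1+ cells from postnatal day 6 testes of 3 mice, pooled, and grown on STO cells, a mouse embryonic fibroblast line used as feeders. Each culture received either PBS or 1 µg/mL of EVs from postnatal day 7 testis for 3 days, and the digested cells were run as droplet single-cell RNA-seq. The labels give no genetic change for either arm, and both held feeder cells. Counts were analysed for the libraries vehicle 1, vehicle 2 and EV 1, while the expression of EV 2 was not analysed here, so the EV arm had 1 library, no test across samples was made between the arms, and a difference between EV 1 and the vehicle libraries has no replicate check.

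Each cell was placed in a class by 8 marker genes that are not replication genes. Germ cells had at least 2 UMIs (counted RNA molecules, told apart by their molecular identifiers) of Dazl, Tex15, Stk31 and Epcam and more of these than of Col1a1, Col1a2, Sparc and Dcn, and feeder cells had the reverse. The libraries held between 10793232 and 27444797 UMIs, and the filters kept 8263 cells for vehicle 1, 8637 for vehicle 2 and 4779 for EV 1. Germ cells numbered 4411, 4783 and 227 in that order, or 53.4%, 55.4% and 4.75% of the cells kept, and feeder cells numbered 2357, 2473 and 2508. EV 1 germ cells therefore supplied 325012 UMIs against 9445041 and 11013433 in the vehicle libraries, and its single genes rest on few molecules. Germ markers left out of the class rule summed to 681, 702 and 686 CPM (UMIs per 1000000 UMIs of that class and library) in germ cells, and in feeder cells they stood at 2.98%, 2.49% and 0.601% of those levels. Feeder markers left out of the rule stood in germ cells at 13.1%, 11.8% and 19.6% of their feeder level. The share of germ markers in feeder cells was thus lower in EV 1 and that of feeder markers in germ cells higher. The source of these UMIs was not tested. Of the markers of other testis cells, Sertoli genes summed to between 284 and 305 CPM in feeder cells, nearly all of it Sox9, and the macrophage list of 6 genes to 8.58, 8.37 and 20.9 CPM. In germ cells, none of the Sertoli, Leydig, myoid, macrophage and endothelial lists summed to more than 49.2 CPM in any library, and Amh, Cyp17a1, Hsd3b1, Insl3, Adgre1, C1qa and C1qb were at 0 in all 3.

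A cell that will divide first licenses its replication origins by loading the ring-shaped MCM helicase onto DNA, then fires them in S phase, when partner proteins switch the helicase on and polymerases copy both strands. The sliding clamp PCNA holds the polymerases on DNA, RPA coats the single strands, and the fragments of the lagging strand are trimmed and joined. Most of these genes are transcribed in waves under E2F factors near the start of S phase, and cells that leave the cycle lower them, so their RNA is widely used as a mark of proliferating cells such as spermatogonia. STO cells are commonly arrested before they serve as feeders.

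Replication genes were far more abundant in germ cells than in feeder cells of the same culture. All 39 together reached 5850 CPM in germ cells of vehicle 1, 5899 in vehicle 2 and 5012 in EV 1, against 939, 958 and 568 CPM in feeder cells. The vehicle libraries lay close to each other in both classes, while EV 1 lay below them in both. On the 4 sums of the vehicle libraries, with the library as a block, edgeR's quasi-likelihood test called 38 of the 39 genes higher in germ cells and 0 lower at an adjusted p under 0.05, and 0 were lower at an unadjusted p under 0.05 or by DESeq2. Over all 16441 genes tested the same test called 43.0% higher and 43.1% lower, so a call alone was common. The titles call the vehicle libraries biological replicates. With the library as a block, these p-values rest on how far the germ over feeder difference varied between the 2 of them. edgeR moderates that variation with information from all genes. edgeR's normalisation factors put each gene about 0.40 lower on the log2 scale than the ratio of CPM values, and the values below are edgeR's unless CPM is named. Levels are compared between cells and not between genes, since each molecule was counted near its 3′ end.

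The helicase itself showed one of the widest gaps. The core MCM2-7 ring was higher in germ cells for each of its 6 genes, with a median log2 difference of 3.05. Mcm3 was measured in germ cells at 182, 195 and 145 CPM in vehicle 1, vehicle 2 and EV 1, and in feeder cells at 13.4, 16.7 and 3.39 CPM (log2 difference 3.24, adjusted p = 5e-54, edgeR). Mcm7 had the smallest gap of the ring, at 160, 169 and 92.3 CPM in germ cells and 29.7, 30.3 and 16.2 CPM in feeder cells (log2 2.06). The classes did not overlap for either gene in any library. Among the partners that switch the ring on, Mcm10, which helps to activate the helicase and to bring in the primase-bearing polymerase, differed by 3.37, and Cdc45, a fixed part of the active helicase, by 1.69. The GINS complex, the other fixed part, was uneven: Gins1 differed by 2.46, Gins3 by 1.61 and Gins4 by 1.44, while Gins2 stood at 17.8, 19.2 and 27.7 CPM in germ cells and 13.9, 13.0 and 8.25 CPM in feeder cells. Gins2 was the 1 gene that the test did not call (log2 0.06, adjusted p = 0.618, edgeR).

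Licensing factors were higher in germ cells for each of 5 genes, with a median of 1.84. Cdc6, which loads the ring together with the origin recognition complex, differed by 3.21, its subunit genes Orc1 and Orc6 by 2.11 and 1.73, the loader Cdt1 by 1.77, and Gmnn, whose product geminin blocks Cdt1 after firing, by 1.84. The polymerase and primase genes were higher as well: Prim1, which makes the RNA primer, differed by 3.01, the leading-strand polymerase gene Pole by 2.59, the lagging-strand polymerase gene Pold1 by 2.19, and Pola1, whose product extends the primer, by 0.97. Both genes of lagging-strand joining were high in germ cells, with Fen1, the flap nuclease, differing by 3.48 and Lig1, the ligase, by 2.90.

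Other roles were split within a complex. RPA is a trimer, yet Rpa2 differed by 3.86, the widest gap of any member but Hells, whereas Rpa1 differed by 0.52 and Rpa3 by 0.79. Rpa2 stood at 158, 157 and 117 CPM in germ cells and at 8.89, 7.62 and 1.33 CPM in feeder cells. The clamp loader split likewise, with Rfc4 at 3.43 and Rfc5 at 2.75 and the remaining subunit genes Rfc1, Rfc2 and Rfc3 between 0.77 and 0.94. Pcna, the clamp, differed by 1.18, and Pclaf, a small PCNA-binding protein of S phase, by 2.30. In nucleotide supply, Rrm1 and Rrm2, the subunits of ribonucleotide reductase, differed by 1.67 and 0.96, and Tyms, which makes thymidylate, by only 0.20 (adjusted p = 0.0154, edgeR). Tyms and Pcna have annotated processed copies in the mouse genome, Tyms-ps, Pcna-ps1 and Pcna-ps2, and reads shared with them were not told apart here.

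Hells, which encodes a chromatin remodeler of the SNF2 family needed for DNA methylation, carried more UMIs than any other member in germ cells. It stood at 1444, 1442 and 1114 CPM in germ cells and at 60.4, 52.2 and 15.9 CPM in feeder cells (log2 4.28, adjusted p = 3.79e-68, edgeR), the widest gap of the set. Clspn, the claspin adaptor of the fork checkpoint, differed by 3.58 and Slbp, which binds the stem-loop of replication-dependent histone RNAs, by 1.67. Without Hells, the other 38 genes summed to 4406, 4457 and 3898 CPM in germ cells and 879, 906 and 552 CPM in feeder cells, so the gap between the classes did not rest on it. Part of the feeder signal can be germ RNA: at the share seen for the left-out germ markers, germ cell levels would give 18.6%, 15.3% and 5.31% of the summed feeder level, and 71.3%, 68.7% and 42.1% of that of Hells.

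**Figure D1:**
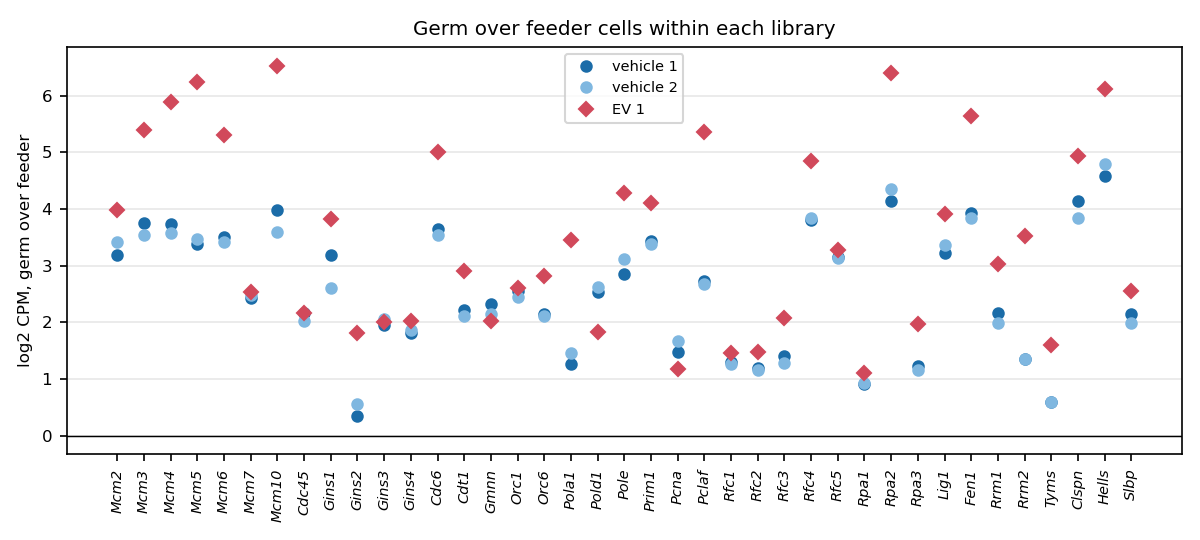
Log2 ratio of CPM in germ cells over feeder cells for each of the 39 genes, ordered by role, in vehicle 1, vehicle 2 (circles) and EV 1 (diamonds), with 0 marking equal levels. The points of the vehicle libraries lie above 0 for every gene, down to 0.35 and 0.56 for Gins2, and EV 1 lies at 6.53 for Mcm10 and 6.24 for Mcm5, above the vehicle points.

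Within EV 1 the same order of classes held, with a CPM ratio above 0 on the log2 scale for each gene, from 1.11 for Rpa1 and 1.18 for Pcna to 6.53 for Mcm10, whose feeder level in EV 1 rested on 3 UMIs.

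Sequences upstream of the members were read for the 32 whose promoter (250 bases before to 50 after the start site) was in the RefSeq table of build GRCm38.p6; Mcm4, Gmnn, Gins1, Gins2, Gins4, Rfc2 and Pole had no entry. Only the first listed start of a gene was read. Mcm7 and Fen1, without an E2F match at that start, and Lig1, with one, had more than 1 start, and their other starts were not searched. The E2F letters TTTGGCGC, TTTCCCGC, TTTCGCGC and TTTGCCGC were searched on both strands. A match stood in 14 of 32 member promoters (43.8%), against 626 of all 27025 promoters (2.32%). CCAAT, the letters of the NF-Y box, stood in 71.9% of the members and 37.9% of all, and TTTGAA, the core of the cell cycle homology region found at many mitotic genes, in 12.5% and 18.1%. More than 1 E2F match was found in Mcm3, Mcm5, Mcm6 and Rfc3, which 0.0999% of all promoters had. These 4 are shown with Pclaf, which followed the cycle bins most closely of the members, and Hells, which carried the most UMIs of the members in germ cells. The E2F letters are in capitals, each line runs 5′ to 3′ in the direction of the gene, and matches that overlap form 1 run of capitals.
Mcm3: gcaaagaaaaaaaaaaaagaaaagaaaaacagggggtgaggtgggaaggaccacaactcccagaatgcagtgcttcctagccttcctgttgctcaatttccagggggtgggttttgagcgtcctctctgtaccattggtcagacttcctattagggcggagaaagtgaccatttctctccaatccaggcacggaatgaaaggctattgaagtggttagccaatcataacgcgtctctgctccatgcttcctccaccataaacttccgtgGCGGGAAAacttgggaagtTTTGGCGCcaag
Mcm5: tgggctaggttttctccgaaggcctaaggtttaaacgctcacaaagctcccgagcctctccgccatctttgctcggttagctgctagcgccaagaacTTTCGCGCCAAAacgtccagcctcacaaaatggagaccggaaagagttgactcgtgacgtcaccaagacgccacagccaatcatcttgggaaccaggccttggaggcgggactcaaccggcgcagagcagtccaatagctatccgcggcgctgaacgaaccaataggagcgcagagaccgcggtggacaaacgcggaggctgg
Mcm6: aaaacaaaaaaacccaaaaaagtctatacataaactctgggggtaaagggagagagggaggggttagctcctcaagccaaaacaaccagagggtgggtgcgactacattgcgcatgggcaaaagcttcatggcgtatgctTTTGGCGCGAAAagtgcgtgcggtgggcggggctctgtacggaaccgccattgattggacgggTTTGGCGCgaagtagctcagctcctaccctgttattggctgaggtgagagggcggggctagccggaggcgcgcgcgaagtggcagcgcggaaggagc
Rfc3: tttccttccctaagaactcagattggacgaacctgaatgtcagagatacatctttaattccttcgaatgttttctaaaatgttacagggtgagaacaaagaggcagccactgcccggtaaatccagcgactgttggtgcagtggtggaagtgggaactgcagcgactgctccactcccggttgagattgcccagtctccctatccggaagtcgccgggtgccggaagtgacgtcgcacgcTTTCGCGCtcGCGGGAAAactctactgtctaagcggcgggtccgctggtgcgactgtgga
Pclaf: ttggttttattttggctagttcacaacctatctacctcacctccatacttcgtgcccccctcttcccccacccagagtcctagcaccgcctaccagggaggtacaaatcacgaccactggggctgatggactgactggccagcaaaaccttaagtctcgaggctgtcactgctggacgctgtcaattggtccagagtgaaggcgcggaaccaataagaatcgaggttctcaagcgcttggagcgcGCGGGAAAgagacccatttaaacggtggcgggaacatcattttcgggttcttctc
Hells: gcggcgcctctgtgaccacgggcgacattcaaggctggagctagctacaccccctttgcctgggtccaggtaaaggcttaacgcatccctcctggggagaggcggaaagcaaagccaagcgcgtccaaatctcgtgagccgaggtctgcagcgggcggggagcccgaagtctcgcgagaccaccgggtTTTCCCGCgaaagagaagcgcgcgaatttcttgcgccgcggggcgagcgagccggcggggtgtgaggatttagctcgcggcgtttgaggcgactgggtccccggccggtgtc
The windows are chr1:20820263-20820562 (minus strand), chr8:75109259-75109558 (plus strand), chr1:128359656-128359955 (minus strand), chr5:151651159-151651458 (minus strand), chr9:65890073-65890372 (plus strand) and chr19:38930740-38931039 (plus strand). Counted from the start site as 0, the matches begin at 19 and 38 in Mcm3, at -153 and -149 in Mcm5, at -110, -106 and -47 in Mcm6, at -10 and 0 in Rfc3, at -5 in Pclaf and at -62 in Hells. The 14 genes with a match had a median germ over feeder difference of 2.60 and the 18 without one of 1.71, with overlapping ranges of 0.94 to 4.28 and 0.20 to 3.86. Their medians for EV 1 over vehicle, described below, were -0.21 and -0.22 in germ cells and -1.42 and -0.91 in feeder cells. A match describes letters in this window and not a bound site.

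In feeder cells, most replication genes were lower in EV 1 than in either vehicle library. The sum was 939 and 958 CPM in the vehicle libraries and 568 CPM in EV 1, a log2 ratio of -0.74, and the ratio to the pooled vehicle counts was 0.578 to 0.620 by its 95% counting interval. Ratios of EV 1 to vehicle are log2 values against the mean of the vehicle libraries, with 0.5 UMI added, and intervals cover counting error only. A gene was counted as lower or higher where EV 1 was past 1.5-fold and lay outside the vehicle values by more than their own distance, among genes with at least 200 UMIs over the 3 libraries. Of the 31 members with that depth, 20 were lower and 0 higher, where 10.3% of all 9705 genes were lower and 4.50% higher. EV 1 lay below both vehicle libraries for 37 of 39 members, as 59.9% of all genes did, and the median ratio was -0.90 over the members and -0.13 over all genes. With TMM factors, which moved the median of all genes to 0.00, the split of all genes went from 1002 lower and 437 higher to 646 and 667, and 18 members were lower and 0 higher. A class sum cannot tell apart fewer cycling cells and less RNA per cell.

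**Figure D2:**
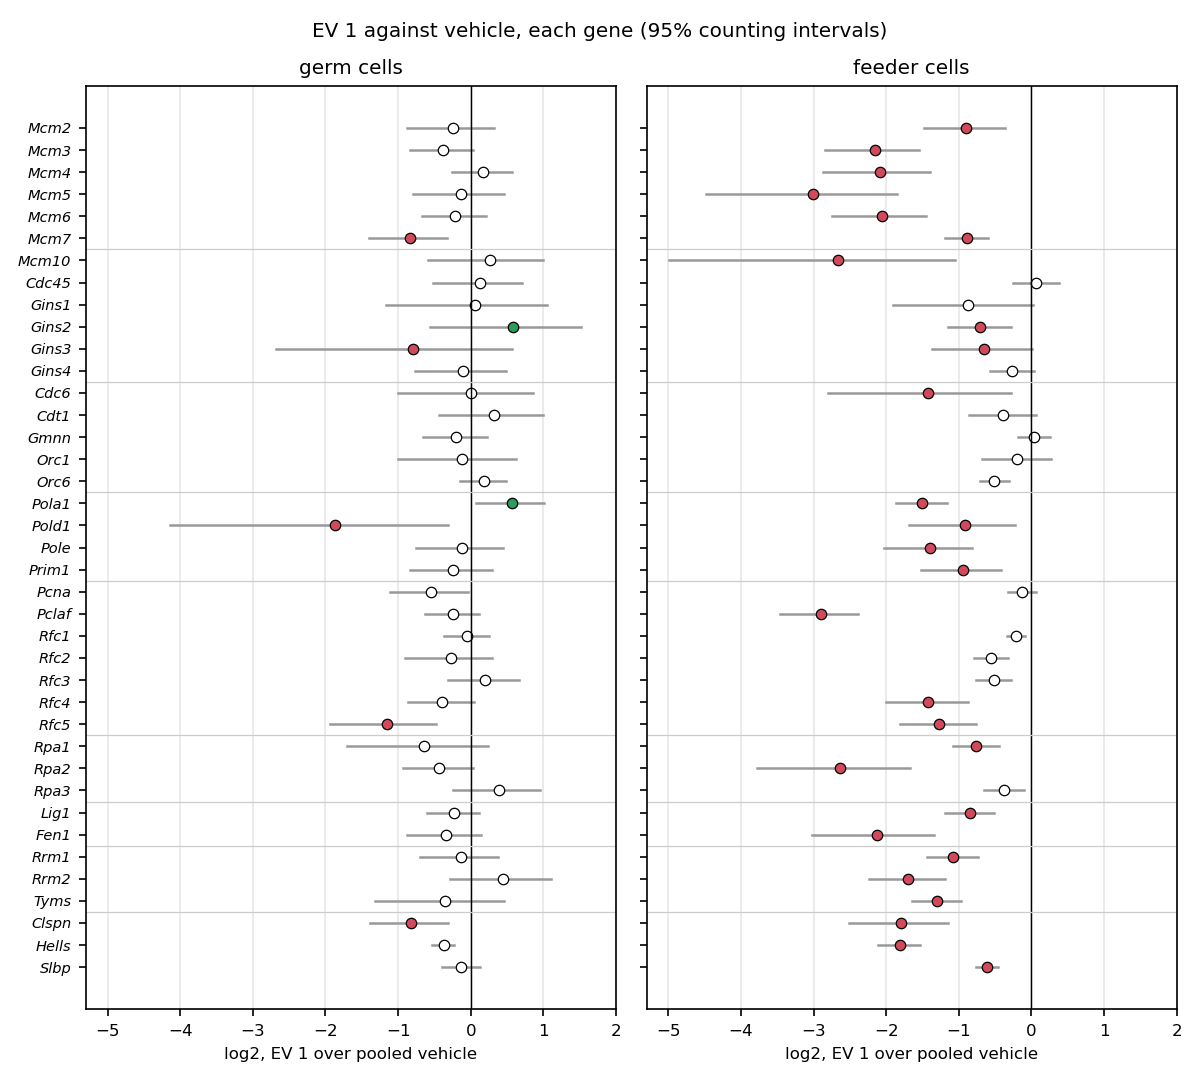
Log2 ratio of EV 1 to the pooled vehicle libraries for each gene in germ cells (left) and feeder cells (right), ordered by role with lines between roles. Points are the ratio, bars its 95% counting interval, red is lower and green higher past 1.5-fold and outside the vehicle range, and white is neither. Colours do not require the depth of 200 UMIs, so 27 genes are red in feeder cells where the text counts 20 with that depth. Germ cell points straddle 0, while feeder cell points lie below it except for Cdc45 and Gmnn.

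Mcm5, Pclaf, Rpa2 and Mcm10 had the lowest ratios, and of these Pclaf alone had the required depth. Mcm5 stood at 7.32 and 6.97 CPM in the vehicle feeder cells and 0.884 CPM in EV 1 (log2 -2.91), where it rested on 6 UMIs. Mcm3 stood at 13.4, 16.7 and 3.39 CPM (log2 -2.13), Mcm4 at 10.4, 12.1 and 2.65 CPM (-2.05) and Mcm6 at 13.6, 14.7 and 3.39 CPM (-2.03). Mcm2 and Mcm7 were lower by less, at -0.90 and -0.88. EV 1 lay outside the vehicle values for each of the 6 genes. Pclaf stood at 36.0, 34.7 and 4.72 CPM (log2 -2.88), on 344, 373 and 32 UMIs, the deepest ratio among members with the required depth. Mcm10 stood at 2.30, 3.25 and 0.442 CPM (-2.45) on 22, 35 and 3 UMIs, a thin count.

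Among polymerase and primase genes 3 were counted as lower of the 3 that had the depth, in fragment joining 1 of 1 (Lig1, whose call ended when germ RNA was subtracted) and in nucleotide supply 3 of 3. In feeder cells with none of the germ marker UMIs, the calls of Pole (-1.27) and Prim1 (-0.88) ended, though both ratios stayed past 1.5-fold. Those of Mcm2, Clspn and Slbp ended there too. Pold1 and Fen1, the latter on 14 UMIs in EV 1, lacked the depth. The 4 polymerase and primase genes lay between -1.50 for Pola1 and -0.89 for Pold1. Pola1 stood at 32.3, 32.2 and 11.3 CPM, and the vehicle libraries differed there by less than 1 CPM. Fen1 stood at 8.58, 9.39 and 2.06 CPM (-2.08) and Lig1 at 24.9, 22.9 and 13.3 CPM (-0.84). In nucleotide supply, Rrm2, the subunit whose level limits the enzyme in the cycle, stood at 17.2, 16.3 and 5.16 CPM (-1.68), Tyms at 31.1, 31.2 and 12.7 CPM (-1.29) and Rrm1 at 23.6, 26.2 and 11.8 CPM (-1.07). Clspn (-1.76), Hells (-1.82) and Slbp (-0.60) were counted as lower as well.

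Within complexes the subunit genes differed. Rpa2 stood at 8.89, 7.62 and 1.33 CPM (log2 -2.57), on 9 UMIs in EV 1 and without the required depth, whereas Rpa1 was counted as lower at -0.75 and Rpa3 was at -0.37. Germ cell RNA at the share seen for the left-out germ markers would come to 52.9%, 51.4% and 53.0% of that feeder level of Rpa2. In the clamp loader, Rfc4 (-1.40) and Rfc5 (-1.26) were counted as lower, and Rfc1 (-0.21), Rfc2 (-0.55) and Rfc3 (-0.51) were not. Pcna stood at 48.4, 44.9 and 42.6 CPM (-0.13), apart from its partner Pclaf. The licensing genes were closer to vehicle: Gmnn stood at 31.7, 34.1 and 33.8 CPM (0.04), Orc1 at -0.19, Cdt1 at -0.38, Orc6 at -0.51 and Cdc6, on 7 UMIs in EV 1, at -1.34. Cdc45 stood at 14.4, 17.2 and 16.7 CPM (0.08), and with Gmnn it was the only member within the vehicle values. The GINS genes lay between -0.82 for Gins1 and -0.27 for Gins4.

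Germ RNA moved with these feeder values. The left-out germ markers summed to 20.3, 17.5 and 4.13 CPM in feeder cells, and germ cells were 53.4%, 55.4% and 4.75% of the cells kept. After subtracting from each feeder sum the germ level times that library's marker share, the summed ratio was -0.55 and 16 members with the required depth were lower. The calls of Slbp (-0.48), Lig1 (-0.53), Mcm2 (-0.58) and Clspn ended, the last through the distance between the vehicle libraries. Hells went from -1.82 to -0.86 and Clspn from -1.76 to -1.23, while Pclaf stood at -3.00, Mcm5 at -3.25, Mcm3 at -1.94 and Rrm2 at -1.68 after subtraction.

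**Figure D3:**
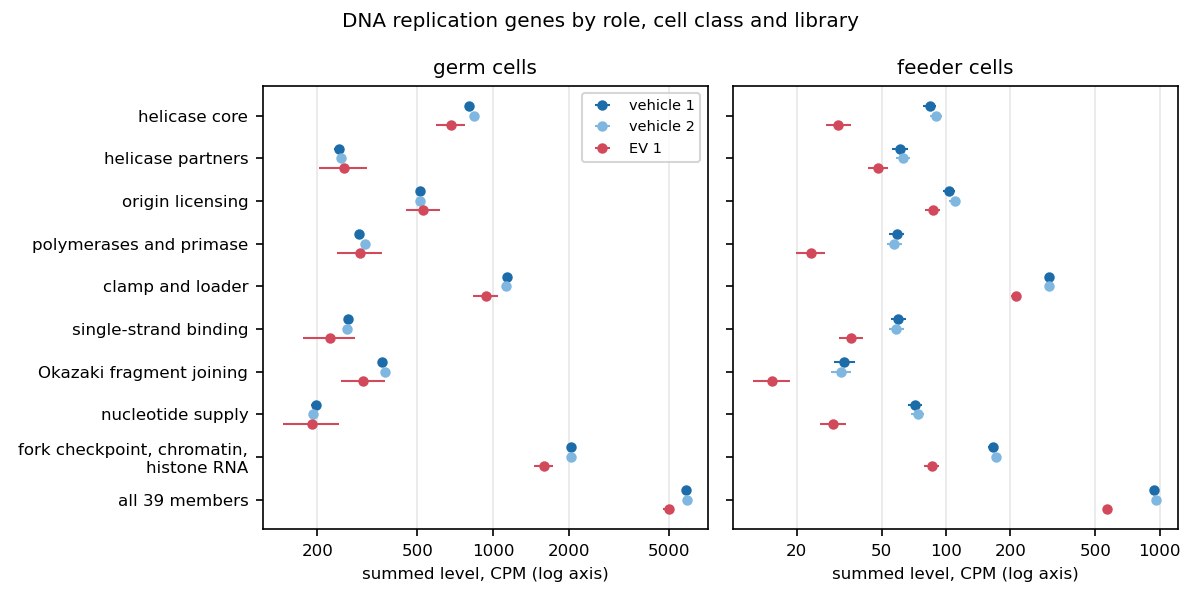
Summed CPM by role, on log axes, in germ cells (left) and feeder cells (right) of vehicle 1, vehicle 2 and EV 1, with 95% Poisson counting intervals. In feeder cells the EV 1 point lies left of both vehicle points for all 9 roles, from 31.4 against 84.0 and 89.4 CPM for the helicase core to 86.7 against 103 and 110 CPM for origin licensing; in germ cells the 3 libraries of a role lie closer together.

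In germ cells the members as a whole lay a little below vehicle in EV 1, and single genes went both ways. Feeder markers moved with these values: those left out of the class rule summed to 215, 202 and 317 CPM in germ cells (log2 0.61), and with feeder RNA subtracted at the marker share the summed ratio given next was -0.23 as well. The sum was 5850, 5899 and 5012 CPM, with a 95% Poisson interval of 4772 to 5262 CPM in EV 1 (log2 -0.23, ratio interval 0.812 to 0.896). Without Hells it was 4406, 4457 and 3898 CPM (-0.18). EV 1 lay below both vehicle libraries for 27 of 39 members, above both for 11 and between them for Cdc6, where 49.5% of all 9674 genes lay below both. All 39 had the required depth, and 5 were lower (12.8%) and 2 higher (5.13%), against 12.2% of all genes lower and 13.8% higher. The share of members that were lower was thus near that of all genes. With feeder RNA subtracted 7 were lower, with Pcna (-0.59) and Rpa1 (-0.60) added, and the share over all genes was not taken for that setting. The median ratio was -0.18 over the members and 0.01 over all genes. By role the sums lay between -0.35 for claspin, Hells and Slbp together and 0.07 for the helicase partners.

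The 5 members that were lower were Mcm7, Rfc5, Clspn, Gins3 and Pold1. Mcm7 stood at 160, 169 and 92.3 CPM on 30 UMIs in EV 1 (log2 -0.81), and it was the only gene of the ring past 1.5-fold: Mcm2, Mcm3, Mcm5 and Mcm6 lay between -0.37 and -0.10 and Mcm4 at 0.18. Rfc5 stood at 119, 115 and 52.3 CPM on 17 UMIs (-1.12), and Clspn at 168, 170 and 95.4 CPM on 31 UMIs (-0.80). For these 3 genes the interval of the ratio to pooled vehicle stayed below 1, at 0.377 to 0.801, 0.261 to 0.720 and 0.383 to 0.802. Pold1 rested on 3 UMIs in EV 1, a ratio of 0.274 with an interval of 0.0565 to 0.806, and Gins3 on 4 UMIs, with an interval of 0.156 to 1.48 that spans no difference. Their ratios are therefore loose, and the call of Gins3 ended without vehicle 1 (-0.55) and when taken as a mean over cells (-0.34).

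Hells stood at 1444, 1442 and 1114 CPM on 362 UMIs in EV 1 (log2 -0.37, ratio interval 0.694 to 0.856), under the fold used but with the tightest interval of any member. Pcna stood at 134, 143 and 95.4 CPM (-0.52, interval 0.464 to 0.974). The 2 higher members were Pola1, at 77.7, 88.2 and 123 CPM on 40 UMIs (0.59, interval 1.05 to 2.02), and Gins2, at 17.8, 19.2 and 27.7 CPM on 9 UMIs (0.66, interval 0.678 to 2.87). Neither call was stable. Both ended with doublets kept, that of Pola1 also without vehicle 1 (0.50), and in cells with none of the other class's marker UMIs Pola1 stood at 0.55 and Gins2 at -0.040, under the fold used. Rrm2 (0.48), Rpa3 (0.41), Cdt1 (0.37) and Mcm10 (0.31) also lay above both vehicle libraries, within 1.5-fold. Slbp, at 425, 425 and 388 CPM, and Rfc1, at 279, 281 and 271 CPM, lay near vehicle. For 32 of the 39 genes the counting interval of the ratio included 1, so a difference was not detectable at this depth.

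Cells that met the rule for neither class, by too few marker UMIs or by equal numbers of both, held 3103, 2964 and 825 CPM of the members (log2 -1.88), and each of the 39 lay below both vehicle libraries, as 47.2% of the 6474 genes with the depth did. In the same cells the left-out germ markers summed to 299, 273 and 44.0 CPM and the left-out feeder markers to 848, 875 and 1490 CPM, and the part of this shift in the member levels was not tested.

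Cell by cell, members were found in nearly all germ cells and in a smaller share of feeder cells. Cells were thinned to 1000 UMIs each, which left out 146, 112 and 49 germ cells. Any member UMI was seen in 98.8%, 99.1% and 97.2% of germ cells of vehicle 1, vehicle 2 and EV 1, and 3 or more in 86.3%, 86.7% and 76.4%. The exact 95% interval of the last share, from 178 cells, was 69.5% to 82.4%, below both vehicle shares. It covers the sampling of cells within 1 library and not the spread between libraries, so it does not test the treatment. The median was 5 UMIs a germ cell in each library, and the largest numbers were 21, 22 and 17. In feeder cells, any member UMI was seen in 52.4%, 50.1% and 41.1%, and 3 or more in 7.75%, 7.53% and 2.58%. At least 10 were seen in 6 and 3 feeder cells of the vehicle libraries and in 0 of 2324 in EV 1, which allows a share of up to 0.129% by 3 counts and 0.159% by the exact 95% interval. Unthinned, the shares with 3 or more were 96.1%, 97.6% and 78.4% of germ cells and 47.4%, 49.2% and 18.4% of feeder cells, with median depths of 1936, 2091 and 1322 UMIs in germ cells and 3635, 3896 and 2448 in feeder cells. Neither class can be taken to lack these genes, so the left-out markers served as the yardstick of RNA from the other class.

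Cycle bins were then set by genes outside the set, again at 1000 UMIs. Cells with at least 2 UMIs of 20 histone genes and more of these than of 20 mitosis genes formed a histone bin, the reverse a mitosis bin, and cells with no UMI of either list a neither bin, while the rest were not binned. These bins are ranges of counts and not cell types. In germ cells of vehicle 1 the members summed to 7675 CPM in the histone bin, 5894 in the mitosis bin and 4900 in the neither bin, and in vehicle 2 to 7554, 5981 and 4881 CPM. The order was the same in both libraries with intervals that did not overlap. EV 1 held 12, 86 and 33 cells in these bins, with 6250 CPM (4916 to 7834), 6000 CPM (5493 to 6541) and 3333 CPM (2740 to 4018). In the mitosis bin EV 1 lay within counting error of vehicle (log2 0.02), a value that reversed to -0.41 at 2000 UMIs and to -0.034 with a bin rule of 1 UMI. In the neither bin EV 1 lay below (-0.55). The neither bin held 9.9%, 9.9% and 18.5% of germ cells, and in it the left-out feeder markers stood at 213, 247 and 364 CPM, whose part in the result was not tested.

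**Figure D4:**
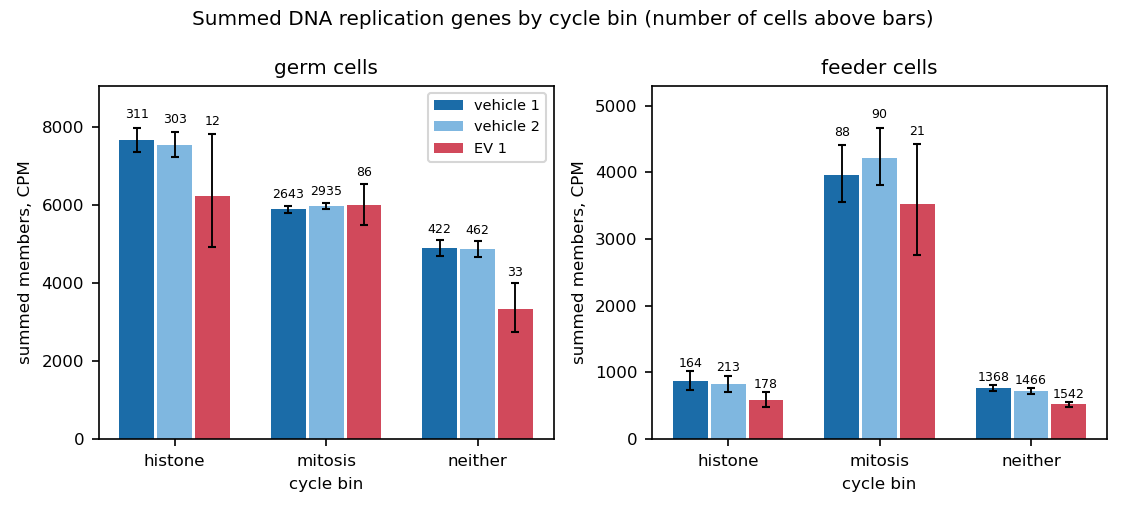
Summed CPM of the 39 genes in germ cells (left) and feeder cells (right) by cycle bin and library, with cells thinned to 1000 UMIs, 95% Poisson intervals as bars and the number of cells above each. In germ cells the vehicle bars step down from the histone to the neither bin, and in feeder cells the mitosis bin reaches 3966, 4222 and 3524 CPM against 523 to 767 CPM in the neither bin.

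Feeder cells held few cells of the mitosis bin, 88 of vehicle 1, 90 of vehicle 2 and 21 of EV 1, or 3.87%, 3.72% and 0.904% of those thinned. In these the members reached 3966, 4222 and 3524 CPM, against 4900, 4881 and 3333 CPM in the neither bin of germ cells, and the left-out germ markers stood at 182, 144 and 0 CPM against 16.1, 13.0 and 5.19 CPM in the neither bin. Those values were 26.7% and 20.6% of the germ cell level in the vehicle libraries, and the 0 of EV 1, from 21000 UMIs, allows up to 143 CPM. How many of these cells held RNA of both classes was not tested. Feeder cells of the neither bin, the largest group, held 767, 721 and 523 CPM of the members (log2 -0.51). With germ RNA subtracted at the marker share of those cells, 629, 612 and 485 CPM were left (-0.36). These last 2 comparisons were added after the data were seen. In EV 1 the share of feeder cells placed in the mitosis bin was thus lower. The histone bin held 164, 213 and 178 of the 2271, 2417 and 2324 feeder cells thinned, so its share in EV 1 lay between those of the vehicle libraries. Member RNA was also lower in EV 1 in cells with no mitosis or histone UMI. Over the whole feeder class the median ratio of all genes was -0.13.

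Members differed in how closely they followed the bins. In germ cells of the vehicle libraries, 34 of 39 were higher in the histone than in the neither bin in both libraries, 32 were higher in the histone than in the mitosis bin, and 28 were lower in the neither than in the mitosis bin. Of the 5971 genes with 200 UMIs over these bins that did not set them, 31.5%, 26.5% and 34.7% lay the same ways, and so did 34, 32 and 27 of the 36 members with that depth. Pclaf had the widest range: it stood at 405 and 366 CPM in the histone bin, 254 and 242 in the mitosis bin and 85.3 and 99.6 in the neither bin (log2 of histone over neither 2.25 and 1.88). Clspn (1.18 and 1.68), Rrm2 (1.06 and 1.47), Prim1 (1.33 and 0.98) and Slbp (1.04 and 0.91) followed. Flatter members included Cdt1, which was at 0.61 and 0.09, Orc6 at 0.74 and 0.18, and Rfc1 at 0.12 and 0.60. Mcm7 stood at 164 and 175 CPM in the histone bin, 149 and 182 in the mitosis bin and 140 and 188 in the neither bin, with no common direction. Hells, at 1714 and 1630, 1473 and 1497, and 1277 and 1264 CPM, kept the order of the bins with small steps.

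**Figure D5:**
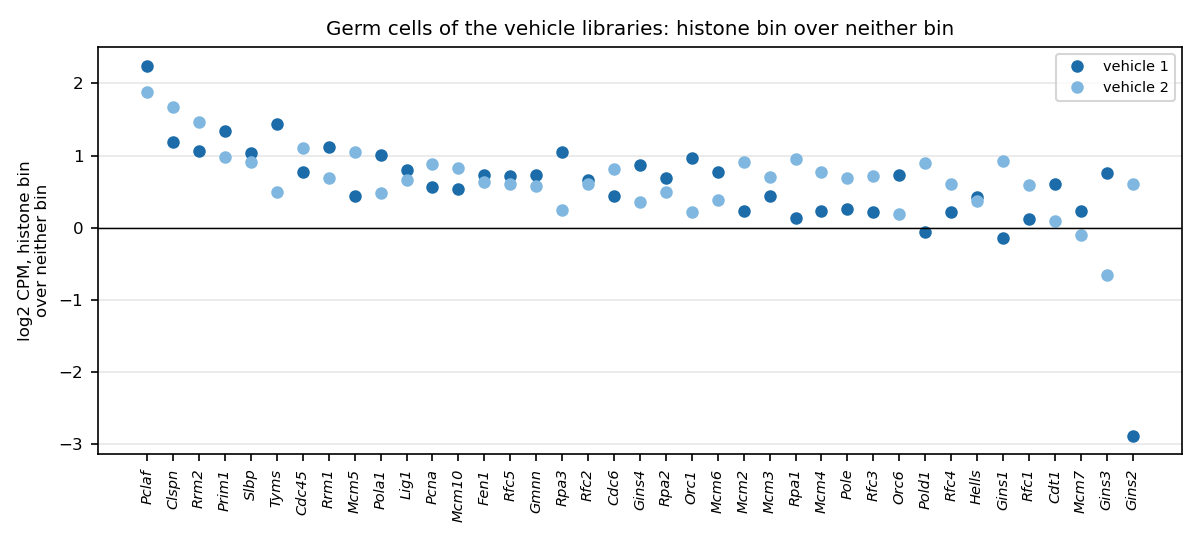
Log2 ratio of CPM in the histone bin over the neither bin for each gene in germ cells of vehicle 1 and vehicle 2, ordered by the mean of both. Pclaf, at 2.25 and 1.88, stands apart at the left, and the points of the 2 libraries fall on opposite sides of 0 for Gins2, Gins3, Mcm7, Gins1 and Pold1 at the right.

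Related genes of the cell cycle gave a frame for these values. Of 43 further replication genes, 40 were higher in germ than in feeder cells and 2 lower by the same edgeR test, with a median log2 difference of 1.66, and all 20 mitosis genes were higher, with a median of 3.53. Between the arms, the further replication genes were at -0.24 as a sum in germ cells, close to the members. Of these 43, 5 were lower and 2 higher, where 12.2% of all genes in germ cells were lower and 13.8% higher. The share of the 43 that was lower was thus near that of all genes. The lowest were Rnaseh2a (-1.37), which removes RNA from DNA, Donson (-1.09), a factor of helicase assembly, and Cdc7 (-1.09), the kinase that fires origins, and the highest were the polymerase subunit genes Pold4 (0.81) and Pole2 (0.69) and the nuclease-helicase Dna2 (0.55). Mitosis genes stood lower, with sums of 3931, 4008 and 2545 CPM (-0.64) and 8 of 20 lower, led by Aurka (-1.20), Plk1 (-1.05) and Ube2c (-1.04). Histone genes were at -0.54, with Hist1h1b at 181, 206 and 86.2 CPM. Among 10 genes of the replication checkpoint and repair response, Cdkn1a, the p21 inhibitor of cyclin-dependent kinases, stood at 61.1, 57.4 and 209 CPM (1.83) and was the only one counted as higher, with 0 counted as lower. Cdkn1a was far more abundant in feeder cells, as given below. Left-out feeder markers stood in germ cells at 13.1%, 11.8% and 19.6% of their feeder level. The part of feeder RNA in the germ values of Cdkn1a was not tested.

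In feeder cells the mitosis genes summed to 276, 265 and 90.1 CPM (-1.59), with 9 of the 10 that had the depth counted as lower, a wider step than the -0.74 of the members. Of all genes in feeder cells, 10.3% were lower and 4.50% higher. The further replication genes summed to -0.16, with 11 lower of the 30 that had the depth and Pold4, at 173, 183 and 292 CPM, the only one higher. Of the 30, the lowest were Chaf1a (-1.53), a chaperone of new histones, Pold2 (-1.39) and Uhrf1 (-1.31), which reads newly copied DNA for methylation. A list of 18 G1/S regulators, which held cyclins and E2F factors but also Rb1, Rbl1, Rbl2, Tfdp1, Cdk2, Cdc25a and Skp2, summed to -0.22. Cdkn1a was at 931, 1046 and 993 CPM (0.01). Hist1h1b, the replication-dependent linker histone, stood at 11.3, 8.74 and 1.18 CPM (-3.01) in feeder cells. The 20 histone genes together stood there at 435, 428 and 398 CPM (-0.11), with 2 lower and 0 higher of the 8 that had the depth.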

How the data were processed

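Cell Ranger 7.0.1 was named in the submitters' processing notes, and the authors deposited unnormalised UMI counts per gene and cell barcode, aligned to mm10. The deposited counts of vehicle 1, vehicle 2 and EV 1 were used, and of EV 2, whose expression was not analysed here, only the 6794 barcodes. No library had over 22 barcodes in common with another. Samples were grouped by their titles. The genes, gene lists, motif letters and tests were chosen with earlier results of these data known, and some lists came from an earlier analysis of the same files.

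Following the study's filters, cells with more than 400 and fewer than 4000 genes and under 10% mitochondrial UMIs were kept. Doublets were then removed with Scrublet in scanpy 1.11.5 at a rate of 0.8% per 1000 cells (633, 697 and 198 cells); the study used another caller. Counts were summed by library and class. Germ and feeder sums of the vehicle libraries were compared by edgeR 4.0.16 (glmQLFit and glmQLFTest, TMM factors, library as block) with Benjamini-Hochberg adjustment over 16441 genes. The script was tested on simulated data. No model was fitted between the arms, since 1 EV library leaves a library difference and the treatment not told apart. Intervals are exact Poisson, exact conditional binomial for ratios and Clopper-Pearson for shares, at 95%, and depth ranged from 325012 to 11013433 UMIs a class. All 39 members are named, and of the other lists the 3 highest and 3 lowest ratios with at least 200 UMIs were eligible. Gene positions and overlaps came from GENCODE vM21 and promoters from RefSeq, both on GRCm38. Cycle bins used a single draw of 1000 UMIs a cell. DESeq2 1.42.0, other scalings, filters and class rules were tried as alternatives.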

Additional observations from a re-analysis of the deposited data

Results flagged for a closer look

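For 10 members EV 1 lay above both vehicle libraries in germ cells and below both in feeder cells. That is 25.6% of the 39, near the 22.3% (1788 of 8017) of all genes with 200 UMIs in both classes, and 8 of the 31 members with that depth did so. The difference between the classes was not tested, since counts of 1 EV library were analysed. In log2 units, germ minus feeder ratio, Mcm10 differed by 2.76 (0.31 in germ cells and -2.45 in feeder cells), Mcm4 by 2.23 (0.18 and -2.05), Rrm2 by 2.16 (0.48 and -1.68) and Pola1 by 2.09 (0.59 and -1.50). Gins2 differed by 1.36 (0.66 and -0.70) and Gins1 by 0.96 (0.14 and -0.82). Rpa3, at 0.78 (0.41 and -0.37), Cdt1, at 0.74 (0.37 and -0.38), Rfc3, at 0.73 (0.22 and -0.51), and Orc6, at 0.69 (0.19 and -0.51), were the closest. The feeder level of Mcm10 rested on 3 UMIs in EV 1 and its germ level on 15, that of Gins2 in germ cells on 9 and that of Gins1 on 8. Of the 10, Pola1 alone had counting intervals of its ratio to pooled vehicle that lay above 1 in germ cells (1.05 to 2.02) and below 1 in feeder cells (0.274 to 0.446).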

How the results depend on the processing

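The summed germ cell ratio of -0.23 lay between -0.26 and -0.15 under every alternative: -0.25 with no cell filter and doublets kept, -0.26 with doublets kept, -0.15 with at least 3 marker UMIs, -0.24 with none of the other class's UMIs, -0.21 with TMM factors, -0.18 with DESeq2 size factors and -0.25 as a mean over cells. Leaving out a vehicle library gave -0.23 to -0.22. The feeder ratio of -0.74 was -0.89, -0.85, -0.68, -0.61, -0.61 and -0.69 under no filter, doublets kept, none of the other class's UMIs, TMM, DESeq2 factors and the mean over cells, -0.55 with RNA of the other class subtracted at the marker share, and -0.51 and -0.36 in the neither bin without and with that subtraction, both chosen after seeing the data. Without 1 vehicle library it was -0.75 to -0.73. The germ over feeder log2 ratio of summed CPM, 2.63, was 2.46 with no filter, 2.50 with doublets kept, 2.65 at 3 marker UMIs, 2.72 with none of the other class's UMIs, 2.61 without mitochondrial and ribosomal protein genes, 2.72 as a mean over cells and 2.87 with that subtraction. The 5 lower members in germ cells became 8 with none of the other class's UMIs, 7 with RNA of the other class subtracted, 6 at 3 marker UMIs and 2 at a fold of 2. The 2 higher became 0 with no filter, with doublets kept or at a fold of 2, 4 at 3 marker UMIs, and 1 with none of the other class's UMIs or as a mean over cells; without a vehicle library they were 1 to 2, the 1 being without vehicle 1. Gins2 then reversed to -0.040 with none of the other class's UMIs. The 20 lower members in feeder cells became 13 at a fold of 2 and stayed between 15 and 27 otherwise. The cause of these shifts was not tested.

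In the histone bin, -0.28 became -2.95 at 2000 UMIs, where EV 1 held 1 cell, and -0.50 with a bin rule of 1 UMI. The mitosis bin, 0.02, reversed to -0.41 at 2000 UMIs, with 21 cells, and -0.034 with the rule of 1 UMI, and the neither bin, -0.55, became -3.19 at 2000 UMIs on 1 cell. The share of germ cells with 3 or more member UMIs, lower in EV 1 by 10.07 percentage points, came to -14.59 at 2000 UMIs, on 26 EV 1 cells with 201 left out, and -18.40 without thinning, and that of feeder cells, -5.06 points, to -11.02 and -29.90. The 38 calls of germ over feeder were 37 to 38 under each alternative, and 38 with no replicate block. No paired analysis of the arms was possible because counts of 1 EV library were analysed, so the arms shared 1 replicate number. In germ cells 27 of 39 members kept the sign of their ratio under all 11 alternatives run for single genes, and in feeder cells 36 did. Depth limits the germ comparison, since 227 cells carry EV 1.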
